A study of Mus musculus with 6 samples.

Results

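Transcripts of 10 smooth muscle contractile genes were followed in the jejunum, the middle stretch of the small intestine, of 6 male C57BL/6J mice. The genes were Des, Acta2, Actg2, Myh11, Tagln, Cnn1, Mylk, Lmod1, Smtn and Synpo2. They were found by name among the non-control spots of the array, where 31 spots formed 13 probes, and they are 10 of 17676 named genes and of 30589 features tested. 3 mice had received the compound VND3207 by stomach tube at 100 mg/kg and 3 had received the same volume of vehicle. All 6 mice were exposed to 9 Gy of ionizing radiation 0.5 h after dosing, and the tissue was taken 6 h after the exposure. No group without radiation was analysed here, so each difference compares drug with vehicle in irradiated gut. Each mouse gave 1 array with 1 colour channel, and levels are log2 signals minus the 75th percentile of the array. A level of 0 is therefore the brightness of the spot at that percentile, and 1 unit is a doubling. The set was chosen by gene role with the levels on these same 6 arrays already known, so the counts below describe it and carry no test of the set.

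Smooth muscle shortens when calcium in the cell rises, which switches on myosin light chain kinase. The kinase phosphorylates the myosin regulatory light chain, and myosin then pulls on thin filaments of smooth muscle actin. In the intestine these proteins are made in the circular and longitudinal muscle layers that drive peristalsis, in the thin muscle sheet under the mucosa, and in the walls of blood vessels. The genes are known targets of serum response factor and its partner myocardin, which act through a DNA element called the CArG box.

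1 array stood apart from the others for these genes. The array of the third VND3207 mouse was the lowest of the 6 for 10 of 10 genes and for 13 of 13 probes, against 4354 of 30589 features. It lay at least 1 log2 unit below the lowest of the other 5 arrays for 9 of 10 genes, against 1.15% of all features and 1.58% of named genes. This distance of 1 unit was chosen after the values were seen. In general measures the same array resembled another of its group: 58.8% of its spots were well above background against 58.9% in the second VND3207 mouse, and no spot was saturated on any array. The vehicle arrays had 66.7% to 70.0% of spots well above background. All vehicle arrays were on 1 slide and all VND3207 arrays on another, scanned separately, so slide, scan and treatment cannot be told apart. In whole tissue, fewer muscle cells and less RNA per muscle cell cannot be told apart either.

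The promoter letters were searched because the genes moved together on that array. RefSeq start-site windows of the GRCm38.p6 build, running from 250 bases before to 50 bases after the start, were at hand for 7 of the 10 genes. Actg2, Myh11 and Tagln had no window, so the counts do not cover them, nor DNA outside the windows. 4 motif forms were searched on both strands, of which only the first had been planned, and a form was chosen for printing after its matches were seen. The strict CArG box was found in 0 of 7 windows and in 1.63% of 32851 windows of all genes. A CArG box with 1 C or G inside its core was found in 1 of 7 windows, that of Acta2, and in 8.5% of all windows. The MCAT element, CATTCC on either strand, which TEAD factors are known to bind, was found in 4 of 7 windows and in 14.7% of all. The E-box, CANNTG, was found in 6 of 7 windows, that of Mylk being without it, and in 72.3% of all. The 30-base stretches that hold the CArG-like and MCAT letters are shown because they are the matches behind these counts, with the matching letters in capitals and each read along the strand of the gene. The Acta2 stretches lie at chr19:34255438-34255467 and chr19:34255388-34255417 for the CArG form and chr19:34255502-34255531 for MCAT, all on the minus strand. Those of Mylk, Lmod1 and Smtn lie at chr16:34784780-34784809 (plus strand), chr1:135324671-135324700 (plus) and chr11:3539497-3539526 (minus). A match is a description of letters and not a bound site.
Acta2 CArG-like, upstream: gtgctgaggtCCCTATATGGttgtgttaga
Acta2 CArG-like, downstream: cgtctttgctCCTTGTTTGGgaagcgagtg
Acta2 MCAT: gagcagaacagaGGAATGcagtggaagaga
Mylk MCAT: tgcagttcagaaCATTCCctggtacgtgca
Lmod1 MCAT: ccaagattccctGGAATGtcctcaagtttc
Smtn MCAT: cggtttgtggcaCATTCCggactttggctt

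Actin and myosin form the filaments that slide. Acta2, the smooth muscle actin abundant in vessel walls, had levels of 5.55, 5.57 and 5.78 in the vehicle mice and 5.74, 5.80 and 3.86 in the VND3207 mice. The first 2 VND3207 mice lay at the upper end of the vehicle range or just above it, and the third lay below all others, 3.77-fold under the mean of its group mates. Actg2, the actin typical of gut muscle, had levels of 6.06, 5.70 and 6.12 with vehicle and 5.98, 5.86 and 3.46 with VND3207. VND3207 replicate 3 was 5.49-fold below the other VND3207 mice, whose values lay inside the vehicle range. Myh11, the smooth muscle myosin heavy chain, had levels of 2.47, 2.54 and 3.04 with vehicle and 2.82, 2.96 and 0.53 with VND3207, so the groups overlapped except for that 1 low array. The Acta2 probe (mm9 chr19:34316060-34316119) and the Actg2 probe (chr6:83462904-83462963) share no run longer than 6 bases with each other, and none longer than 7 with the probes of 4 further actin genes. Probes were compared only with probes, so this cannot show whether a probe also binds the transcript of another actin gene. The Myh11 probe lies at chr16:14202190-14202249. Acta2 was printed in 10 spots per array, and on the third VND3207 array those spots ran from 3.79 to 3.89, so the low value did not come from 1 spot.

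The genes that act on the filaments or switch them on showed the same low array. Mylk, the myosin light chain kinase, had levels of 2.25, 2.47 and 2.46 with vehicle and 2.63, 2.60 and 1.28 with VND3207 (probe at chr16:35001266-35001325). It had the smallest fall of the 10 genes, 2.52-fold below its group mates, and was the 1 gene that missed the 1-unit distance, at 0.97 log2 units below the lowest other array. Cnn1, calponin, which binds actin and slows the myosin motor, had levels of 5.85, 5.51 and 6.02 with vehicle and 5.95, 5.77 and 3.61 with VND3207 (chr9:21913058-21913117). Its first 2 VND3207 values lay within the vehicle range. Tagln, an actin-bundling protein widely used to mark smooth muscle, had levels of 5.82, 5.81 and 6.04 with vehicle and 6.11, 5.96 and 4.17 with VND3207 (chr9:45738097-45738156). VND3207 replicate 3 was 3.64-fold below the other VND3207 mice. Lmod1, leiomodin, which starts new actin filaments, had levels of -2.54, -2.64 and -2.10 under vehicle and -2.05, -1.70 and -3.90 under VND3207 (chr1:137264581-137264640). Both higher VND3207 values were above all 3 vehicle values, and the third was below them.

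Des, Smtn and Synpo2 belong to the scaffold that holds the filaments. Des encodes desmin, the intermediate filament of muscle, and had levels of 2.21, 2.13 and 2.42 with vehicle and 2.25, 1.87 and -0.40 with VND3207. The second VND3207 mouse was also below the vehicle range, and the third was 5.49-fold below the mean of the other VND3207 mice. Its 10 spots on that array ran from -0.45 to -0.32. The probe aligns to 226 bases of genome, chr1:75363404-75363629, for its 60 bases, so the alignment holds a gap.

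Smtn, smoothelin, a protein of contractile smooth muscle, had 2 probes that differed in how far they fell. The probe used in the fit (chr11:3417530-3417589) had levels of 3.78, 3.72 and 3.94 with vehicle and 3.92, 3.96 and 2.59 with VND3207. The other probe (chr11:3420834-3420893) had levels of -0.11, -0.02 and -0.01 with vehicle and -0.15, -0.09 and -0.48 with VND3207. The third VND3207 mouse was lowest on both, 2.56-fold below its group mates on the first probe and 1.28-fold on the second. The files give the probes different RefSeq transcripts, and their middle 30 bases are shown to tell them apart.
Smtn fit probe, bases 16 to 45: ctcccctttgtacacacgcagcgttttgat
Smtn other probe, bases 16 to 45: tggtgcggcttcgagagccagactggaagt

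Synpo2, an actin-binding protein of the muscle Z-disc and of smooth muscle dense bodies, had 3 probes, all named for 1 transcript. The probe used in the fit, with the highest mean, had levels of 2.12, 2.43 and 2.73 with vehicle and 2.24, 2.51 and 0.04 with VND3207. A second probe had levels of -1.64, -1.33 and -1.60 with vehicle and -2.93, -2.20 and -3.32 with VND3207, so here all 3 VND3207 mice were below all 3 vehicle mice. The remaining probe had levels of -3.76, -3.93 and -4.17 with vehicle and -4.10, -4.46 and -5.09 with VND3207 and was well above background on 5 of 6 arrays. With each kept probe as a feature, the second probe was the 1 of 13 member probes that passed limma's test, with a difference of -1.29 ± 0.29 (SE, n = 3 and 3) and an adjusted p of 0.032, against 15.5% of all probes. Without the third VND3207 mouse that difference was -1.04 and the adjusted p of 0.0502 missed the threshold. The call was also lost without vehicle replicate 1, 2 or 3 or VND3207 replicate 1, and with quantile normalization, median scaling, the deposited value table or the within-array correction 0 of 13 passed. The middle bases of the fit probe and the second probe are given because these probes of 1 gene disagree on the comparison.
Synpo2 fit probe, bases 16 to 45: ctgtatgtgaaagatttggactgaaaaatc
Synpo2 second probe, bases 16 to 45: tgccatttaccttgttcaaatccacctgtc

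**Figure D1:**
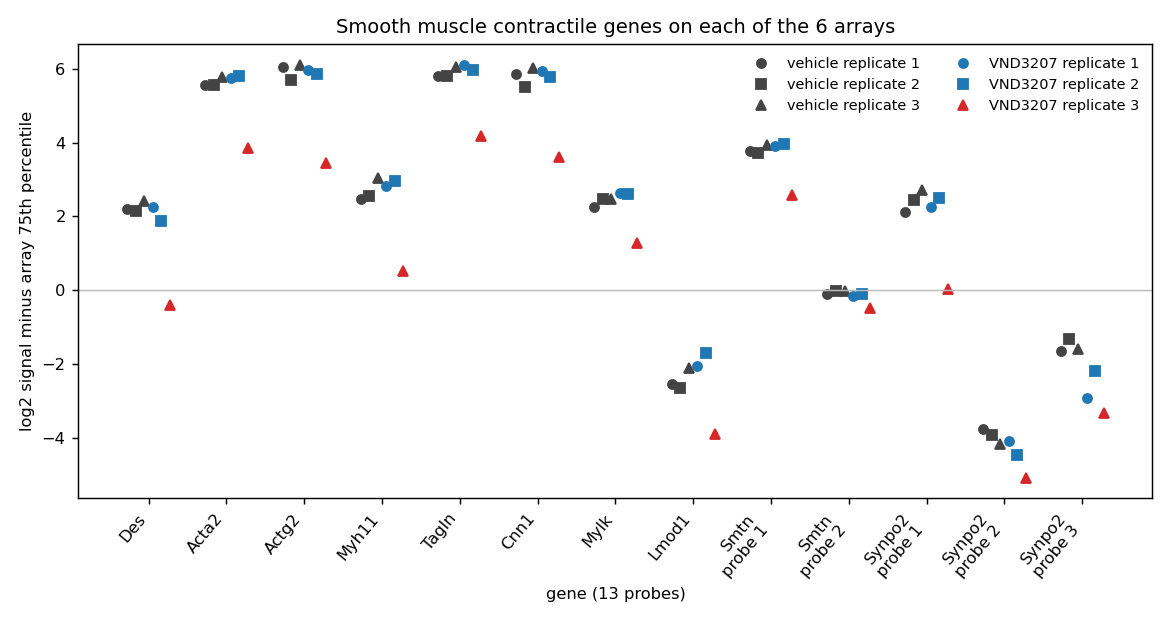
Levels (log2 signal minus the array's 75th percentile) of the 13 probes of the 10 genes on the horizontal axis, with 1 point per mouse: grey for vehicle, blue for VND3207 replicates 1 and 2, red for VND3207 replicate 3. The red triangle is the lowest point for 13 of 13 probes, and at least 1 log2 unit below the next for 9 of them.

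The comparison of VND3207 with vehicle asks whether the drug changed these transcripts in irradiated jejunum. None of the 10 genes passed limma's test (adjusted p under 0.05), against 17% of all features (0.945% higher and 16.1% lower) and 10.1% of named genes, and none had an unadjusted p under 0.05, against 28.4% of features. The differences ran from -1.01 ± 0.68 for Des (SE, n = 3 and 3, limma adjusted p = 0.41) to -0.13 ± 0.57 for Lmod1 (adjusted p = 0.92), and their median was -0.54 against -0.08 over all features. All 10 were below 0 in this scaling, but Lmod1 was above 0 with quantile normalization, median scaling, normexp background or the deposited table, and Mylk with median scaling. The groups overlapped for 10 of 10 genes, whereas they did not overlap for 35.4% of features. The median SD within a group was 0.19 with vehicle and 1.24 with VND3207, against 0.16 and 0.15 for all named genes, so the spread of these genes among the VND3207 mice was that of 1 array.

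Without the third VND3207 mouse the picture changed sign for most genes. 7 of 10 differences were then above 0, Des, Actg2 and Synpo2 staying below, and the median was 0.13, against -0.09 over all features. The largest was Lmod1 at 0.55 ± 0.22 (limma adjusted p = 0.18, n = 3 and 2) and the lowest Des at -0.19 ± 0.17 (adjusted p = 0.53). Again 0 of 10 passed, against 16.5% of features, and SD among the VND3207 mice fell to a median of 0.10. A p above the threshold does not show that the groups are alike. Over all features the call was lopsided, with 289 higher and 4922 lower, and it depended on the scaling: 744 and 3077 with quantile normalization, 734 and 3019 with the deposited table, 739 and 1934 with the within-array correction, and 6114 and 3535 with median scaling, which moved the median of all features to 0.24.

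**Figure D2:**
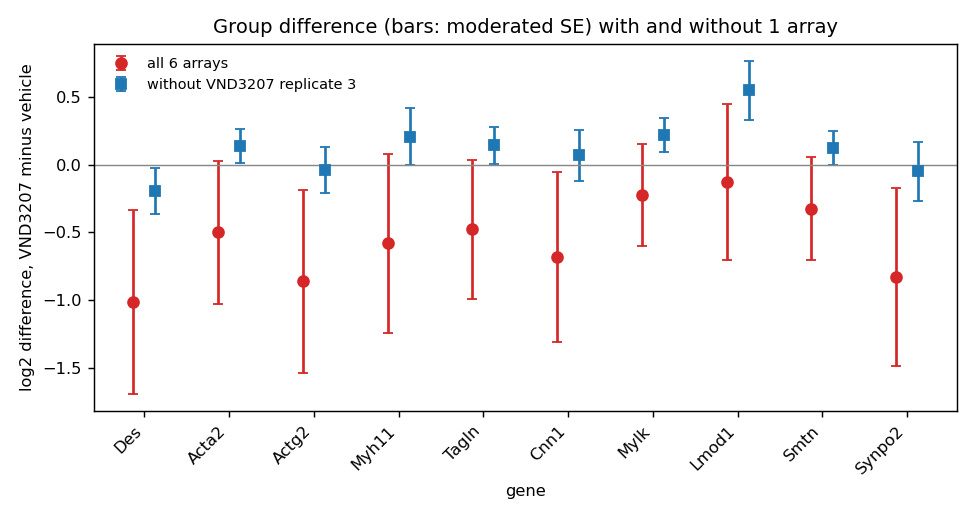
Log2 difference, VND3207 minus vehicle, for each of the 10 genes, with limma's moderated standard error as bars: red circles use all 6 arrays and blue squares leave out VND3207 replicate 3. Red points lie below 0 for 10 of 10 genes in the 75th percentile scaling (Lmod1 and Mylk change sign in other scalings), and blue points lie above 0 for 7 of 10.

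The mean of the 10 genes, each centred on its own mean over the arrays, gave 1 profile per mouse. It was 0.20, 0.16 and 0.48 in the vehicle mice and 0.40, 0.40 and -1.64 in the VND3207 mice. On the last array the centred value of the lowest gene was -2.14, and all 10 genes were below their own means there. The value of the third VND3207 mouse stayed between -1.69 and -1.51 over the scalings, background settings and the median in place of the mean. The summed signal of the 10 genes, in units of the 75th percentile spot, was 236 to 296 with vehicle and 286, 270 and 67.4 with VND3207.

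The named genes nearest to this profile, by a rule that takes 10, were Psd, Hspb6, Dmpk, Rgs5, Ldhb, Wscd2, Mrvi1, Tpm2, Ppm1e and Adamts8. Likeness was the root mean square difference of centred log2 values over the 6 arrays, and it ran from 0.05 for Psd to 0.11 for Adamts8, while the members themselves ran from 0.06 for Acta2 to 0.30 for Mylk. Tpm2, smooth muscle tropomyosin, had levels of 4.53, 4.56 and 4.96 with vehicle and 4.79, 4.74 and 2.51 with VND3207. Hspb6, a small heat shock protein of muscle, had 2.03, 2.05 and 2.45 with vehicle and 2.17, 2.23 and 0.20 with VND3207. Their low last array follows from the choice by likeness and adds no support.

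**Figure D3:**
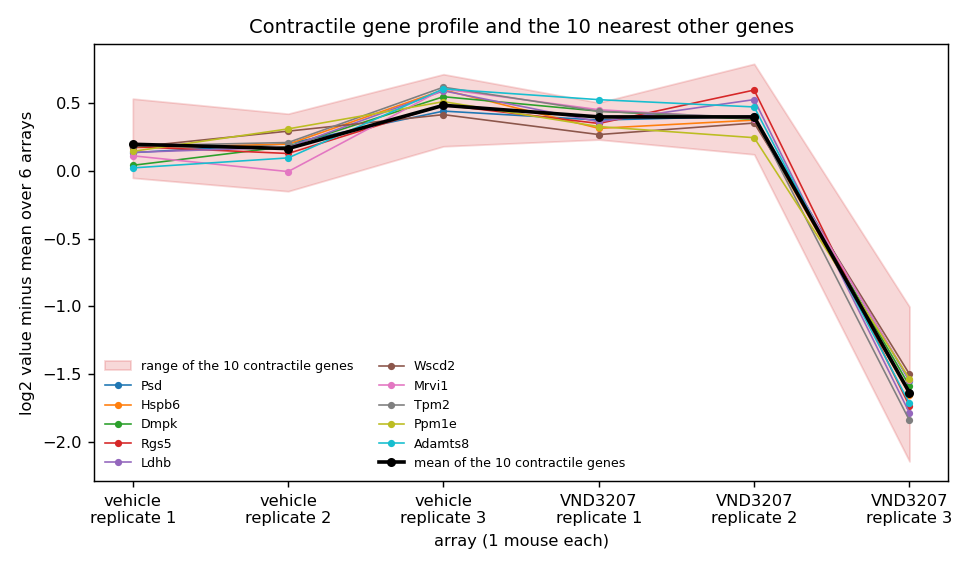
Centred log2 value on each of the 6 arrays (1 mouse each): the black line is the mean of the 10 contractile genes, the pink band their range, and the thin coloured lines the 10 nearest other genes. Lines join arrays to guide the eye and imply no order. The mean is -1.64 on VND3207 replicate 3 and between 0.16 and 0.48 on the other arrays.

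Other muscle genes followed the 10 in part. Of 78 tested genes in 5 other muscle lists, 17 (21.8%) were at least 1 log2 unit below the other 5 arrays in the third VND3207 mouse, against 1.15% of features and 1.58% of named genes. Of these 17, 5 were calcium handling genes, Cacnb2, Chrm2, Kcnmb1, Pln and Ryr2, and none of the 5 was well above background on that array. In the calcium handling list 6 of 15 genes were not well above background there. In the group comparison 0 of the 78 rose and 4 fell, or 5.13%, against 0.945% of all features higher and 16.1% lower. They included Nkx3-2, a transcription factor of gut mesenchyme, at -1.90 ± 0.19 (limma adjusted p = 0.0027), and Pde5a at -0.61 ± 0.14 (adjusted p = 0.035). They also included Jph2, junctophilin (limma adjusted p = 0.0050), which was well above background on 0 of 3 VND3207 arrays. With its dim values raised to a floor set per array, Jph2 was 1.95-fold lower there, a rough figure and not a strict limit. Nkx3-2 passed in the 75th percentile scaling and in 5 other settings of scaling, background or correction. Jph2 did not pass with normexp or the within-array correction, nor Pde5a with median scaling, and with median scaling 8 other genes of these lists were higher, among them Rhoa and Myh9. Without VND3207 replicate 3, Nkx3-2 and Jph2 fell and Cav1 and Foxf1 rose. Among the 14 other contractile apparatus genes Myl9, the regulatory light chain that Mylk phosphorylates, was 4.04-fold below its group mates in the third VND3207 mouse and Tpm2 4.78-fold. They were the only 2 of the 14 at least 1 log2 unit below the other 5 arrays, and 9 of the 14 were lowest on that array. Myl6 was 1.09-fold below its group mates there, and Myh9 lay 0.07 log2 units above its own. In the adhesion plaque list, whose median deviation was -0.96, the brightest genes were Csrp1 at 6.05, 5.45 and 6.02 with vehicle and 6.24, 6.25 and 4.46 with VND3207, and Flna, filamin. Median deviations were -0.87 for contraction regulators, -0.85 for calcium handling and receptors, -0.25 for muscle transcription regulators and -0.24 for other contractile genes, against -2.14 for the 10 and 0.07 for all features.

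Markers of other cell types in the gut wall moved with the low array to differing degrees, and their part in the result was not tested. The 5 mesothelial genes, which mark the outer lining of the gut, had a median deviation of -3.46 and a summed level of 1.20 to 2.60 with vehicle and 3.01, 3.40 and 0.46 with VND3207. Among them Msln had levels of 0.92, 0.20 and -0.66 with vehicle and 1.06, 1.29 and -2.28 with VND3207, Upk1b had -1.66, -2.41 and -1.91 and then -1.45, -1.49 and -2.25, and the other 3, Upk3b, Wt1 and Lrrn4, were not well above background on the last array. The 4 tested genes of interstitial cells of Cajal, the gut pacemakers, had a median deviation of -0.78. Ano1 was at 0.17 in the third VND3207 mouse against 0.31 to 1.19 in the others and Etv1 at -0.16 against 0.10 to 0.51. Kit, at -0.74 in that mouse, was not the lowest of the 6, as vehicle replicate 2 had -0.75. Thbs4 was lowest in that mouse but not well above background there. The summed level of the 4 genes was 3.10 to 4.03 with vehicle and 4.52, 4.65 and 2.63 with VND3207. Enteric neuron and glia genes deviated by -0.72, with sums of 23.1 to 29.3 and then 16.7, 18.1 and 13.3. Snap25 made up 72.3% to 87.7% of that sum, and the other genes summed to 3.60 to 5.73 with vehicle and 4.62, 4.68 and 2.54 with VND3207. In the group comparison, where 16.1% of all features fell and 0.945% rose, 3 of 12 fell: Gfap, Sox10 and Snap25, of which Snap25 alone passed with quantile normalization and Gfap alone fell with median scaling. Pericyte genes deviated by -0.65, fibroblast genes by -0.34 and endothelial genes by -0.15. Pericyte sums were 423 to 526 and then 259, 295 and 291, but Anpep, a peptidase that gut epithelium also makes, was 91.8% to 96.2% of them. Without it they were 17.0 to 25.6 and then 21.3, 20.8 and 20.8. Even so, the third VND3207 mouse had the lowest value of the 6 for 4 of 7 pericyte genes, against 4354 of 30589 features. The same count was 10 of 12 for enteric neuron and glia genes, 3 of 10 for fibroblast genes and 2 of 8 for endothelial genes. Among the pericyte genes Rgs5 was 4.62-fold, Kcnj8 3.31-fold and Abcc9 2.49-fold below the other VND3207 mice. Mcam, the brightest pericyte gene after Anpep, was higher there, at 4.15 against 3.86 and 3.78. Fibroblast sums were 72.8 to 104 and then 103, 95.8 and 76.4, and endothelial sums 12.7 to 13.8 and then 9.55, 9.56 and 10.2. Kdr made up 64.0% to 80.8% of the endothelial sum, and the other genes summed to 2.64 to 3.43 and then 3.44, 3.05 and 2.86. Between groups 2 of 10 fibroblast genes rose, Pdgfrb and Pdgfra, against 0 with the within-array correction, Pdgfrb alone with quantile normalization, normexp or the deposited table, and 4 with median scaling. Of 7 pericyte genes Anpep fell, though not with quantile normalization or the deposited table, and of 8 endothelial genes Pecam1 and Kdr fell, while with median scaling 2 others, Cdh5 and Eng, rose and these 2 did not pass. Epithelial genes, with a median deviation of 0.06, were not low on that array, with sums of 3049 to 3626 with vehicle and 2331, 2484 and 2520 with VND3207. 6 of 12 epithelial genes fell between groups, against 16.1% of features, Fabp1 by 0.82, Fabp2 by 0.58, Krt8 by 0.47 and Krt20 by 0.44 on the log2 scale, but 0 of 12 passed with quantile normalization and, with median scaling, Fabp1 fell and Cdh1 rose. Without VND3207 replicate 3 the genes of these lists past the threshold were Fabp1, Fabp2, Gfap, Anpep, Pecam1 and Kdr, lower, and Pdgfra, higher. The intestinal markers Vil1, Fabp1 and Lct were well above background on all 6 arrays.

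**Figure D4:**
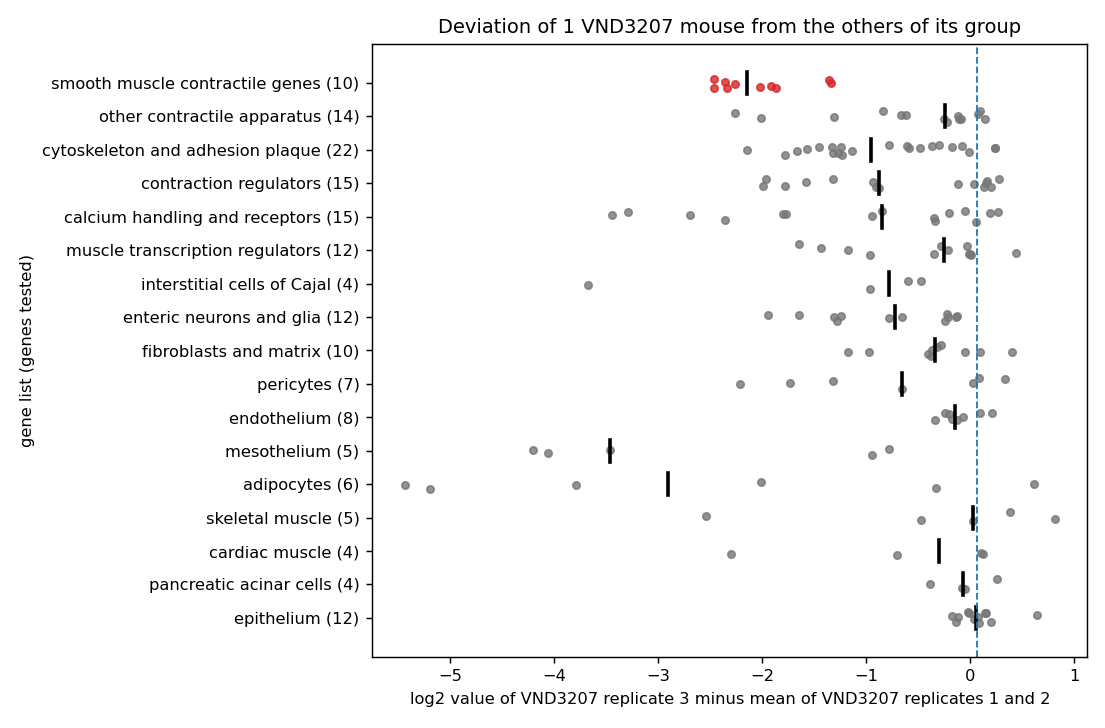
Log2 level of VND3207 replicate 3 minus the mean of VND3207 replicates 1 and 2 for each tested gene (points), by gene list, with black bars at the median and a dashed line at the median of all features (0.07). The contractile genes (red, median -2.14) lie between -2.46 and -1.34, the mesothelial median is -3.46 and the epithelial median 0.06.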

How the data were processed

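Scanner output came from Agilent Feature Extraction 10.7.1.1, per the submitters' processing notes. The deposited intensity values used are its processed signal of each spot after background subtraction, per the file headers. The authors also deposited a table of log2 values, each column with a median of 6.05. Its making is not given in the sources used here, and it served as an alternative.

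Control spots and outlier spots were left out, but a probe with only outlier spots kept them (3 to 29 probes per array). Spots of a probe were averaged, and the 75th percentile of each array, over all its non-control spots, was subtracted on the log2 scale. Probes well above background on at least 3 of 6 arrays were kept, each gene being its probe with the highest mean. Probes were named by the files and RefSeq tables. For Jph2, Tnnt3, Myod1 and Cpa1, well above background on no VND3207 array, the folds given use a floor. Each VND3207 value, where lower, was raised to the dimmest non-control spot called well above background on that array. A gene can lie above that floor uncalled, as Tnnt3 did on VND3207 replicate 1 (-4.88 against -5.13), so these folds are no strict limits. Groups were compared with limma 3.58.1 in R 4.3.3 (lmFit, eBayes, group only, Benjamini-Hochberg adjustment over 30589 features, threshold 0.05). The fit was checked on simulated data with independent noise, where changes were planted only in features of low within-group spread. The 10 genes spread more than those features, and no slide effect was simulated, so the check covers neither. The labels name separate mice, 1 array each. The 10 genes and all lists were chosen with earlier results of these data known.

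The named genes are all 10 members with every probe, of each other list the genes past the threshold (up to 4, smallest adjusted p first, else the 2 with the highest mean), and the 10 named genes nearest to the mean profile among those well above background on all 6 arrays whose SD is at least 0.5 times that of the profile. Further genes of the lists, whether low in the third VND3207 mouse or not, were chosen after their values were seen. Alternatives were quantile normalization, median scaling, normexp (offset 50), the deposited table, 2 filters, the mean of a gene's probes, each probe, a replicate block, array weights, an intensity trend, each array left out and a correction for spot position, brightness and GC (mgcv 1.9.3). The form of the correction was changed 2 times after array means were seen to differ, and the form used leaves them equal. Probe positions are mm9, from the files. 1 gene that this rule names is not reported here.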

Additional observations from a re-analysis of the deposited data

How the results depend on the processing

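The number of features past the threshold was 5211, and 9649 with median scaling, 2947 with normexp, 2673 with the within-array correction, 2986 with probes well above background on all 6 arrays, 3459 with the replicate block, and 3022 to 5036 with 1 array left out (3022 without vehicle replicate 2). Deviations of same-numbered arrays from their group means correlated over features at 0.12, -0.11 and -0.04. With 3 arrays a group, such values cannot show whether the numbers pair the mice, and the main fit used group only. 2 settings were added after the data were seen: without VND3207 replicate 3 and with quantile normalization 3238 features passed, and with the within-array correction 2300. In these, Des and Synpo2 stayed below 0. The others were above 0, at 0.25 and 0.34 for Acta2, 0.085 and 0.23 for Actg2, 0.22 and 0.37 for Myh11, 0.26 and 0.32 for Tagln, 0.19 and 0.27 for Cnn1, 0.23 and 0.28 for Mylk, 0.75 and 0.39 for Lmod1, and 0.17 and 0.057 for Smtn, in that order of settings. With 1 array left out and the 75th percentile, the ranges were -0.83 to 0.14 for Acta2, -1.01 to 0.21 for Myh11, -0.82 to 0.14 for Tagln, -1.10 to 0.071 for Cnn1, -0.46 to 0.22 for Mylk, -0.55 to 0.55 for Lmod1 and -0.56 to 0.13 for Smtn. The signs turned without VND3207 replicate 3, and for Lmod1 also without vehicle replicate 3 (0.04). Lmod1 was 0.10 with quantile normalization, 0.19 with median scaling, 0.050 with normexp, 0.094 with the deposited table and 0.20 with array weights, and Mylk was 0.090 with median scaling. No member passed the threshold in any setting run. The count of member probes past it was 1, and 0 with quantile normalization, median scaling, the deposited table or the correction, and 0 to 1 with 1 array left out, the 1 being without VND3207 replicate 2. The median SD of the members among VND3207 mice was 0.10 to 1.54 with 1 array left out. The cause of these shifts was not tested. With 3 mice a group, the number of arrays limits the precision.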

Other observations

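Most adipocyte genes varied widely from mouse to mouse in both groups, but Lipe (-0.09, 0.14 and -0.11) and Lep (-4.28, -4.69 and -4.64) varied less among the vehicle mice. The summed level of the 6 adipocyte genes was 4.62 to 23.7 with vehicle and 94.9, 23.3 and 5.95 with VND3207, and 0 of 6 genes passed limma's test, against 17% of features. Fabp4, a fatty acid carrier, had levels of 3.02, 1.60 and 2.39 with vehicle and 5.11, 3.06 and 2.07 with VND3207, and Cfd, adipsin, had 3.74, -1.37 and 1.24 and then 5.70, 3.73 and -0.48. The third VND3207 mouse deviated from its group mates by a median of -2.90 log2 units over the 6 genes, against -2.14 for the contractile genes, but 0 of the 6 were lowest there of all arrays. Lipe went the other way, 0.61 above its group mates, and Lep deviated by -0.33. Plin1 and Lep were not well above background on that array. Of the striated muscle genes, 2 of 5 skeletal and 2 of 4 cardiac genes were lower with VND3207, against 16.1% of all features. They were Tnnt3 and Myod1, both well above background on 0 of 3 VND3207 arrays, and Myh6 and Nppa. With dim values raised to the array floor, Tnnt3 was 2.54-fold and Myod1 1.27-fold lower, which are not strict limits. Nppa was well above background on 1 of 3 VND3207 arrays. Myod1 did not pass with normexp or the within-array correction, nor Nppa with normexp. Summed skeletal muscle levels were 3.77 to 4.84 with vehicle and 6.84, 3.12 and 7.42 with VND3207, of which Acta1 made up 85.7% to 98.2%. The other skeletal genes summed to 0.43 to 0.52 and then 0.42, 0.45 and 0.13, with 3 of them not well above background on the last array. Summed cardiac levels were 2.36 to 2.47 and then 2.57, 2.57 and 1.06. In the third VND3207 mouse Ckm was 5.82-fold and Tnnt2 4.93-fold below the other VND3207 mice. The pancreatic gene Cpa1 was lower (limma adjusted p = 0.045, and 0.10 without VND3207 replicate 3) but did not pass with quantile normalization, normexp, the deposited table or the correction. With dim values raised to the array floor, Cpa1 was 2.33-fold lower, which is not a strict limit. Its vehicle levels were -4.51, -2.15 and -4.29, so 1 mouse raised the vehicle mean behind this fold. The pancreatic list sums were 0.67 to 1.43 with vehicle and 0.61, 0.64 and 0.61 with VND3207.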
